A study of Rattus norvegicus with 10 samples.

Results

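Intercalated disc junctions join heart muscle cells end to end. The 10 genes of these junctions described here were chosen by name: Dsp, Pkp2, Jup, Dsg2 and Dsc2 of the desmosome, Cdh2, Ctnna1 and Ctnna3 of the adherens junction, Gja1 of the gap junction and Tjp1, a junctional scaffold. All 10 were found, each on 1 entry, among 39784 gene names in the RNA sequencing tables, and all 10 were among the 13420 names with a mean of at least 1 TPM that entered the test. TPM is a transcript level scaled for gene length and to the same sum in every library.

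Each library came from cultured neonatal rat cardiomyocytes of wild type genotype, labelled as heart tissue, that overexpressed a form of YAP, a transcriptional coactivator restrained by the Hippo pathway. One group received Ad-Xon-YAP5SA, an activated YAP whose inhibitory serines are replaced by alanine. The other received Ad-Xon-YAP5SA-S94A, in which alanine also replaces a serine that YAP needs to bind the TEAD transcription factors. There were 2 libraries per form, called biological replicates in the labels without naming separate cultures or isolations, so p-values measure the spread between these libraries, which may be technical. Both groups carried activated YAP, and no RNA library of GFP or uninfected cells was used here, so a difference does not show which form departed from untreated cells. The labels do not give the dose, the time after treatment, the promoter or species of the transgene, or the age of the rats in days. The 6 CUT&RUN samples were left out here.

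Desmosomes anchor desmin intermediate filaments to the membrane, and adherens junctions anchor actin through cadherins and catenins. Gap junctions carry the electrical current from cell to cell. In the heart the desmosomal and adherens proteins mix in a hybrid zone of the disc, and in humans inherited defects of the desmosomal genes cause arrhythmogenic cardiomyopathy.

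Aligned sequence, as the tables imply it, ranged from 4.02 to 5.1 gigabases per library, with the least in YAP5SA replicate 2. The mitochondrial share of TPM was 7.53% and 10.2% for YAP5SA and 12.6% and 14.0% for YAP5SA-S94A. Ccn1, a classical YAP and TEAD target, stood at 522 and 438 TPM in YAP5SA against 39.9 and 36.1 TPM in YAP5SA-S94A, and was thus higher in both libraries of the form that binds TEAD. Yap1 itself stood at 102 ± 4.13 TPM in YAP5SA and 119 ± 3.42 TPM in YAP5SA-S94A (SD, n = 2 each) and was not called (limma adjusted p = 0.122). Both groups overexpressed YAP, so this level cannot tell the labels apart. With the species of the transgene not given, how much of the level came from it is not known. Cardiomyocyte markers were abundant in all libraries: the 10 listed summed to 19209 and 19262 TPM in YAP5SA and 20340 and 20356 TPM in YAP5SA-S94A. Within these sums Nppa rose, at 9625 and 9474 TPM in YAP5SA against 3743 and 3714 TPM in YAP5SA-S94A. Of the 10, 8 were called lower and 1 was not called, so the close sums do not mean unchanged markers. In bulk RNA, fewer cells of a type and less RNA per cell cannot be told apart.

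The 10 genes moved in both directions. The gap junction gene and all 3 adherens junction genes fell in YAP5SA, and within the desmosome Dsp fell 3.07 times while Pkp2 rose 1.57 times. By limma with a Benjamini-Hochberg adjusted p under 0.05, 1 of the 10 genes was higher in YAP5SA, 5 were lower and 4 were not called. Over all tested names 17.4% were called higher and 15.5% lower, 32.9% in either direction. The median log2 fold change of the 10 was −0.34, beside 0.00015 for all tested names. A fold change here is the limma difference in log2(TPM + 1), YAP5SA less YAP5SA-S94A, and it understates the change of low genes. Values of the 2 forms did not overlap in any of the 10 genes, as in 68.2% of all tested names. Each library was also left out in turn. Dropping YAP5SA replicate 1 gave the 10 a median log2 fold change of −0.48, beside −0.035 for all tested names. Dropping YAP5SA replicate 2 gave −0.20, beside 0.041. For YAP5SA-S94A, dropping replicate 1 gave −0.32, beside −0.00076, and dropping replicate 2 gave −0.36, beside −0.0045. In these fits the number of calls shifted over all tested names as well as among the 10, so that shift is not particular to the 10.

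**Figure D1:**
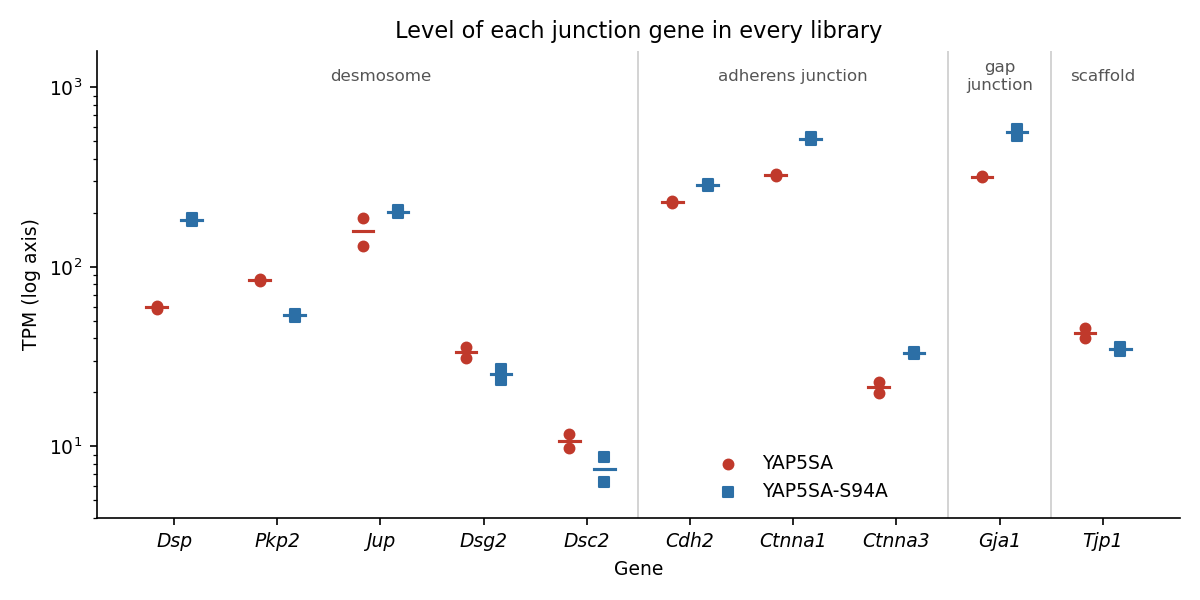
Level of each junction gene in TPM (log axis), 1 point per library and a bar at the mean of 2, with YAP5SA to the left of YAP5SA-S94A. The pair of groups is far apart for Dsp (means of 59.7 TPM in YAP5SA and 183 TPM in YAP5SA-S94A) and close for Jup, whose YAP5SA libraries differ from each other (187 and 131 TPM).

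Dsp encodes desmoplakin, the plaque protein that ties the desmosome to desmin filaments, and it had the largest change of the 10. The gene lies on chromosome 17, 26623602 to 26671692, minus strand (rn7). Its level was 60.9 and 58.5 TPM in YAP5SA, against 180 and 187 TPM in YAP5SA-S94A. Both YAP5SA values were less than any YAP5SA-S94A value by a wide margin, and replicates lay close together. The mean was 3.07 times lower in YAP5SA (fold change −1.60 with SE 0.09 on the log2 scale, adjusted p = 5.03e-05 by limma), and the call held in all 15 other settings, with log2 fold changes of −1.68 to −1.57. Read coverage of the gene was 118 and 84.1 reads per base in YAP5SA and 343 and 349 in YAP5SA-S94A.

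The promoter windows of Dsp and Gja1, the genes with the strongest fall in a desmosome and a gap junction, are shown because the compared YAP forms differ in TEAD binding. They are RefSeq windows of 300 bases, 250 before the start and 50 after it, in build GRCr8, and capitals mark a match to a searched motif. The Dsp window is chr17:26877072-26877371, minus strand, and the Gja1 window is chr20:36302314-36302613, plus strand.
Dsp: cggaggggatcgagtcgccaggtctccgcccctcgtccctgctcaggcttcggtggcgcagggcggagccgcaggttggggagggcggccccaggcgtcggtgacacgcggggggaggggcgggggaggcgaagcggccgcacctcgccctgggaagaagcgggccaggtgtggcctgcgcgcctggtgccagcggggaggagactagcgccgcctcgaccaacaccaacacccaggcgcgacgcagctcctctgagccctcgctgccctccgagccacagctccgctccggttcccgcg
Gja1: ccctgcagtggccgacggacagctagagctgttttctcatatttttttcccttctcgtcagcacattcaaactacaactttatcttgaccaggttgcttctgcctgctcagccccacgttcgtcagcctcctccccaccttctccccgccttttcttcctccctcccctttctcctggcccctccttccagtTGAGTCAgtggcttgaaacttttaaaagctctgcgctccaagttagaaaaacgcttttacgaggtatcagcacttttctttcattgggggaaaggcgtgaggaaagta

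Promoter windows were found for 7 of the 10 genes: Dsp, Jup, Dsg2, Dsc2, Gja1, Ctnna3 and Tjp1. The motifs searched, on both strands, were GGAATG for TEAD factors, TGANTCA for AP-1 and, for MEF2, CTA and TAG separated by any 4 bases. GGAATG was in 0 of the 7 windows and in 14.2% of 33469 RefSeq rat promoter windows of the same length. TGANTCA was in 1 of 7, in Gja1 at the capitals, whose first base lies 58 bases before the start, and in 7.33% of all windows. The MEF2 motif was in 0 of 7 and in 3.84% of all windows. The matches overlapped no other motif. A missing match says that these letters are not in this window and nothing of TEAD binding elsewhere. Each window follows the annotated RefSeq start, which was not checked against the starts used in these cells. The Tjp1 window, at 33.7% GC, may thus not be the promoter in use. GC content was 75% in the Dsp window and 50.3% in the Gja1 window, beside a median of 51.7% over all windows.

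Pkp2 encodes plakophilin-2, an armadillo-repeat protein of the cardiac desmosomal plaque that binds desmoplakin, and it went the other way. The gene lies on chromosome 11, 84661783 to 84727730, minus strand. Pkp2 stood at 85.3 and 83.0 TPM in YAP5SA, against 52.4 and 55.0 TPM in YAP5SA-S94A. The YAP5SA libraries were both higher, and the spread within each form was far smaller than the gap between them. The mean was 1.57 times higher in YAP5SA (fold change 0.64 with SE 0.10 on the log2 scale, adjusted p = 0.00313 by limma), a call that held in the same 15 settings.

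Jup encodes plakoglobin, an armadillo protein shared by desmosomes and adherens junctions (chromosome 10, 85300438 to 85327378, minus strand). Jup stood at 187 and 131 TPM in YAP5SA, against 207 and 200 TPM in YAP5SA-S94A. The YAP5SA values were lower but lay wide apart, and the difference was not called (log2 fold change −0.37, 95% interval −0.75 to 0.0078, limma adjusted p = 0.12). Without YAP5SA replicate 1 it was called lower (log2 fold change −0.63, limma adjusted p = 0.00455), and without YAP5SA replicate 2 the log2 fold change was −0.12.

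The desmosomal cadherins Dsg2 and Dsc2, which form the adhesive contact between cells, had higher values in YAP5SA without a call. They lie on chromosome 18, Dsg2 at 11846207 to 11904630 on the plus strand and Dsc2 at 11450392 to 11482476 on the minus strand. Dsg2, desmoglein-2, stood at 36.0 and 31.1 TPM in YAP5SA, against 23.5 and 27.1 TPM in YAP5SA-S94A (log2 fold change 0.39, 95% interval 0.068 to 0.72, limma adjusted p = 0.067). Dsc2, desmocollin-2, was the lowest of the 10 genes, at 9.77 and 11.7 TPM in YAP5SA against 6.30 and 8.70 TPM in YAP5SA-S94A (log2 fold change 0.47, 95% interval 0.0019 to 0.95, limma adjusted p = 0.113). Without YAP5SA-S94A replicate 1 the log2 fold change of Dsc2 was 0.27. The lowest YAP5SA value of each gene was above the highest YAP5SA-S94A value, but the gaps were of the order of the spread within a form. Dsg2 was called higher without YAP5SA replicate 2 (limma adjusted p = 0.0456). Coverage of Dsc2 was 11.9 to 18.2 reads per base over the 4 libraries.

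**Figure D2:**
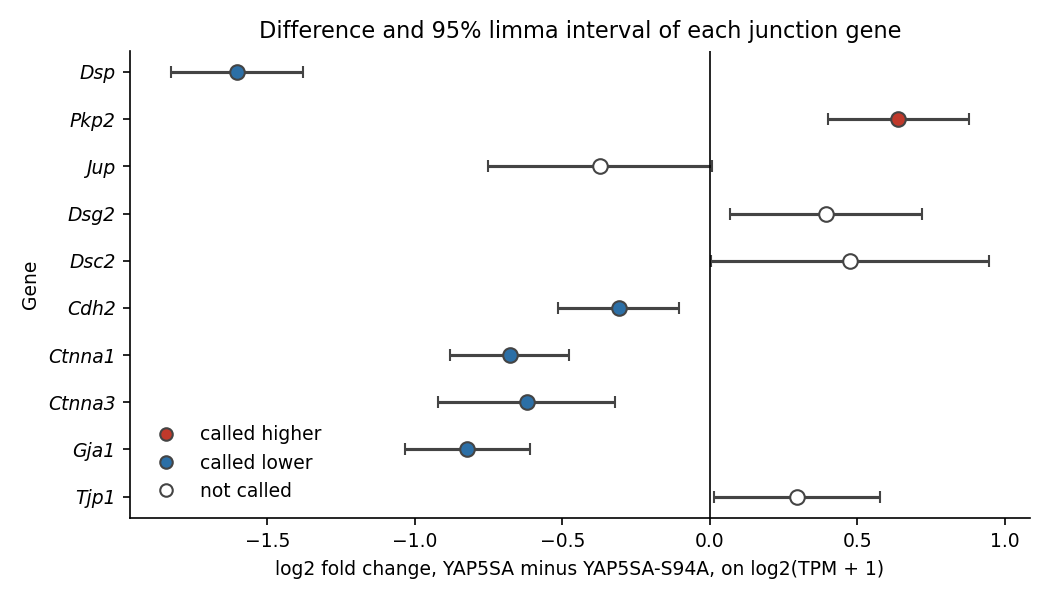
Log2 fold change of each junction gene (horizontal axis, YAP5SA minus YAP5SA-S94A), with its 95% limma interval; filled points were called at an adjusted p under 0.05. Dsp (−1.60) stands alone on the left, the adherens and gap junction genes lie between −0.82 and −0.31, and Pkp2 (0.64) is the only one called higher.

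The make-up of the desmosomal transcripts differed between the forms. Together the 5 desmosomal genes summed to 379 and 316 TPM in YAP5SA, against 469 and 477 TPM in YAP5SA-S94A. Dsp was 16.1% and 18.5% of that sum in YAP5SA, against 38.4% and 39.1% in YAP5SA-S94A. Pkp2 was 22.5% and 26.3% in YAP5SA, against 11.2% and 11.5% in YAP5SA-S94A. Jup remained the largest share in each library, at 49.4% and 41.6% in YAP5SA and 44.1% and 41.9% in YAP5SA-S94A, and Dsg2 and Dsc2 had larger shares in both YAP5SA libraries than in either YAP5SA-S94A library.

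As a ratio of levels, which TPM allows because it is per length, there were 1.40 and 1.42 Pkp2 transcripts per Dsp transcript in YAP5SA, against 0.291 and 0.295 in YAP5SA-S94A. Pkp2 thus stood above Dsp in both YAP5SA libraries and below it in both YAP5SA-S94A libraries. Dsp per Jup was 0.325 and 0.445 in YAP5SA, against 0.871 and 0.933 in YAP5SA-S94A. Dsg2 per Dsc2 was 3.68 and 2.67 in YAP5SA and 3.73 and 3.12 in YAP5SA-S94A, which overlap. Among 5 ratios compared, the smallest two-sided p of an exact permutation over these 4 libraries is 0.333, or 0.556 as adjusted over the 5 ratios, so none could pass a threshold. The exact permutation p was 0.333 for both Pkp2 per Dsp and Dsp per Jup and 0.667 for Dsg2 per Dsc2.

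**Figure D3:**
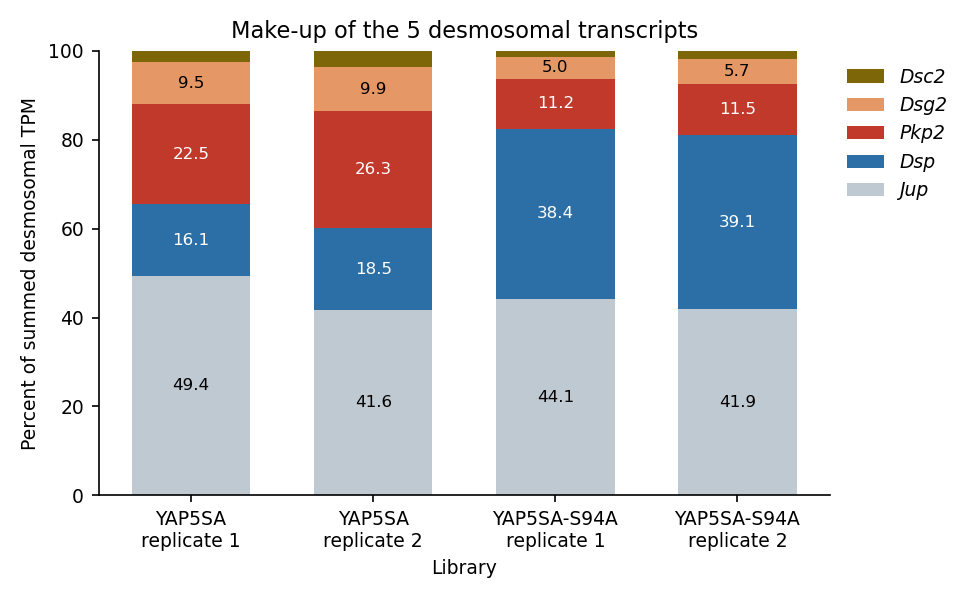
Percent of the summed TPM of the 5 desmosomal genes held by each gene, 1 bar per library, YAP5SA to the left. Dsp holds 16.1% and 18.5% in YAP5SA and 38.4% and 39.1% in YAP5SA-S94A, while Pkp2 holds 22.5% and 26.3% in YAP5SA and 11.2% and 11.5% in YAP5SA-S94A.

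The adherens junction genes fell together, by less than Dsp. Ctnna1, alpha-E-catenin, which links cadherins to actin, lies on chromosome 18, 26728246 to 26860911, plus strand. Ctnna1 stood at 328 and 319 TPM in YAP5SA, against 507 and 529 TPM in YAP5SA-S94A, and was 1.60 times lower in YAP5SA (fold change −0.68 with SE 0.09 on the log2 scale, adjusted p = 0.00117 by limma). The libraries of each form lay close together and the forms far apart, and the call held in all 15 other settings.

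Ctnna3, alpha-T-catenin, is the alpha-catenin enriched in heart muscle that also binds plakophilin-2 (chromosome 20, 23614469 to 25200026, minus strand). Ctnna3 stood at 22.7 and 19.9 TPM in YAP5SA, against 32.8 and 33.7 TPM in YAP5SA-S94A, 1.56 times lower in YAP5SA (fold change −0.62 with SE 0.13 on the log2 scale, adjusted p = 0.00953 by limma). Both YAP5SA values were lower. The call was lost without YAP5SA-S94A replicate 1 (limma adjusted p = 0.0502) and without YAP5SA-S94A replicate 2 (0.0703), with log2 fold changes of −0.64 and −0.60. Ctnna3 transcripts per Ctnna1 transcript numbered 0.0693 and 0.0625 in YAP5SA and 0.0647 and 0.0637 in YAP5SA-S94A. These ratios overlapped between forms (exact permutation p = 1). As 0.333 is the smallest p possible here, this test could not have called a difference between the changes of the 2 catenins.

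Cdh2, N-cadherin, is the classical cadherin of the disc (chromosome 18, 7776704 to 7990934, minus strand). It stood at 234 and 227 TPM in YAP5SA, against 290 and 282 TPM in YAP5SA-S94A, 1.24 times lower in YAP5SA (fold change −0.31 with SE 0.09 on the log2 scale, adjusted p = 0.0321 by limma). This was the smallest of the called differences among the 10 genes. The call was lost without YAP5SA-S94A replicate 1 (limma adjusted p = 0.322), without YAP5SA-S94A replicate 2 (0.242) and with no intensity trend (0.112).

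Gja1 encodes the main connexin of ventricular muscle (chromosome 20, 35756007 to 35768481, plus strand). It stood at 321 and 315 TPM in YAP5SA, against 539 and 587 TPM in YAP5SA-S94A. Both YAP5SA values were lower, and the mean was 1.77 times lower in YAP5SA (fold change −0.82 with SE 0.09 on the log2 scale, adjusted p = 0.000639 by limma), a call that held in all 15 other settings. Gja1 transcripts per Cdh2 transcript numbered 1.37 and 1.39 in YAP5SA, against 1.86 and 2.08 in YAP5SA-S94A, which did not overlap (exact permutation p = 0.333, the lowest possible).

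Tjp1, a zonula occludens scaffold that binds the tail of the Gja1 connexin, was not called (chromosome 1, 118849838 to 119094492, minus strand). It stood at 40.2 and 45.4 TPM in YAP5SA, against 33.8 and 35.6 TPM in YAP5SA-S94A (log2 fold change 0.29, 95% interval 0.012 to 0.58, limma adjusted p = 0.102). The YAP5SA values were higher in both libraries, and without YAP5SA replicate 1 the difference was called (log2 fold change 0.38, limma adjusted p = 0.0365).

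Summed over all 10 genes, junction transcripts came to 1325 and 1241 TPM in YAP5SA, against 1872 and 1945 TPM in YAP5SA-S94A, 1.49 times lower in YAP5SA. By class the mean sum for the desmosome was 347 ± 44.8 TPM in YAP5SA and 473 ± 5.67 TPM in YAP5SA-S94A (SD, n = 2 each). For the adherens junction it was 575 ± 13.6 TPM in YAP5SA and 837 ± 10.1 TPM in YAP5SA-S94A. In this class, unlike the desmosome in YAP5SA, the spread within each form was small beside the difference. The order of levels in YAP5SA was Ctnna1, Gja1, Cdh2, Jup, Pkp2, Dsp, Tjp1, Dsg2, Ctnna3 and Dsc2, in which Ctnna1 and Gja1 overlapped and the other neighbours did not. In YAP5SA-S94A it was Gja1, Ctnna1, Cdh2, Jup, Dsp, Pkp2, Tjp1, Ctnna3, Dsg2 and Dsc2, with no overlap between neighbours.

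The place of both alpha-catenins in that order depends on the deposited measure. Coverage was lower, relative to FPKM, for Ctnna1 and Ctnna3 than for the other genes: 0.0759 to 0.0763 of the most frequent ratio in the library for Ctnna1 and 0.0614 to 0.071 for Ctnna3, against 0.805 to 1.00 for the other 8. Of the entries over 1 FPKM, 3.21% to 3.31% per library lay under 0.1 of that ratio. By Coverage, Ctnna1 had 51.0 and 36.7 reads per base in YAP5SA and 77.4 and 79.0 in YAP5SA-S94A, below Dsp in each library, and Ctnna3 had 2.15 to 4.44 over the 4, the lowest of the 10. Levels of these genes against other genes, the adherens junction sum and the sum over all 10 genes are thus uncertain. Differences between forms compare each gene with itself. The ratio was nearly constant over the libraries for Ctnna1 but varied for Ctnna3, whose difference is less certain for that reason. No gene on the opposite strand that overlaps a member passed 5.11 TPM in any library, a value reached by a tRNA name within Tjp1 that is summed over several entries.

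Profiles most like those of Dsp, Gja1 and Cdh2 were found by the Euclidean distance between centred log2(TPM + 1) values over the 4 libraries. The 3 nearest to Dsp were Spryd7 (distance 0.022 log2 units), Sord (0.034) and Arrdc3 (0.066). Those nearest to Gja1 were Clic5 (0.041), LOC102554669 (0.048) and Twsg1 (0.049), and those nearest to Cdh2 were Pnn (0.0047), Rab7a (0.016) and Tox4 (0.022). LOC102554669 overlaps Bri3, and Tox4 overlaps Mettl3, on the opposite strand, so their reads cannot be assigned with certainty. With 4 libraries in 2 groups, such likeness says little beyond a similar difference between forms.

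Other junction genes were described in 5 lists. Of 95 listed genes 65 passed the filter on low values, of which 23 (35.4%) were called higher and 9 (13.8%) lower, beside 17.4% higher and 15.5% lower over all tested names. The share called lower was thus near that of all names, and 5 of the 23 passed the filter only through YAP5SA, where they were high. The median of the 65 log2 fold changes was 0.18. It was 0.065 with no filter, 0.11 with the mitochondrial chromosome left out and 0.28 without YAP5SA replicate 2. On the log2(TPM + 1) scale the largest increases among the 65 were in Plekha7, Cgn, Gjb2 and F11r. As ratios of mean TPM, YAP5SA over YAP5SA-S94A, the largest were 242 for Ctnnd2, 56.8 for Gjb2 and 39.5 for Cdh15, each with a mean under 1 TPM in YAP5SA-S94A, and then 12.0 for Plekha7.

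The list of cadherins, catenins and nectins outside the 10 genes held 22, of which 18 were tested (median log2 fold change 0.42). Of the 18, 9 (50%) rose and 0 fell, beside 17.4% higher and 15.5% lower over all tested names. Of these 9, Cdh6, Cdh15 and Ctnnd2 had a mean under 1 TPM in YAP5SA-S94A and passed the filter only through YAP5SA, so they could enter only as higher. With a minimum mean of 5 TPM, which left out Cdh5, Cdh6, Cdh15 and Ctnnd2 of the 18, 6 genes of the list rose and 0 fell. At that filter 2063 of all 10618 tested names were called higher and 1911 lower. Plekha7, an adherens junction protein that in human epithelial cells tethers microtubule minus ends, stood at 122 and 102 TPM in YAP5SA, against 9.42 and 9.16 TPM in YAP5SA-S94A (log2 fold change 3.45, SE 0.13). Cdh3, P-cadherin of epithelia, stood at 50.3 and 38.4 TPM in YAP5SA against 9.64 and 8.83 TPM in YAP5SA-S94A. The YAP5SA libraries were higher for both, without overlap. The nectin gene Nectin2, a cell adhesion molecule, rose by 1.58 on the log2 scale, and Vcl, vinculin, which binds alpha-catenin under tension, by 0.75. Ctnnb1, beta-catenin, and Ctnnd1, p120-catenin, which bind Cdh2, were not called, whereas the catenin gene Ctnnd2 was among the 9 that rose. Ctnnb1 stood at 267 and 224 TPM in YAP5SA against 260 and 263 TPM in YAP5SA-S94A. Ctnnd1 stood at 80.0 and 86.3 TPM in YAP5SA against 87.5 and 95.7 TPM in YAP5SA-S94A. Ctnnb1, Ctnnd1, Ctnnd2, Cdh5, Cdh6 and Cdh15 were named after their values were seen. The list's lower count was 1 without YAP5SA replicate 1.

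Among tight junction and related genes, of which 23 were listed, 4 of 12 tested (33.3%) rose and 0 fell (median 0.34). Over all tested names 17.4% were called higher and 15.5% lower. F11r, a junctional adhesion molecule, stood at 121 and 117 TPM in YAP5SA, against 19.7 and 18.7 TPM in YAP5SA-S94A (log2 fold change 2.57, SE 0.11). Cgn and Cgnl1, cingulin and its paralog, which lie in the tight junction plaque, rose by 2.72 and 2.34 on the log2 scale. The adjusted p by limma was 2.02e-05 for F11r. With no filter on low values 1 gene of the list fell, Cldn7, a claudin that stayed under 1 TPM in each library and was named after its values were seen.

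Connexins other than Gja1 were low. Of 9 tested connexins and pannexins 2 rose and 2 fell (22.2% each way, beside 17.4% higher and 15.5% lower over all tested names; 17 listed; median 0.031). Gjb2, a connexin of epithelia, was among those that rose and stood at 4.68 and 6.75 TPM in YAP5SA, against 0 and 0.201 TPM in YAP5SA-S94A. Gja5, the connexin of atrial and conduction muscle, fell to 2.74 and 2.70 TPM in YAP5SA, against 5.69 and 5.60 TPM in YAP5SA-S94A, and the pannexin gene Panx2 fell by 1.30 on the log2 scale, though it overlaps a low expressed gene on the opposite strand, which makes its value uncertain. Both genes that rose had a mean under 1 TPM in YAP5SA-S94A and passed the filter only through YAP5SA. Leaving out either YAP5SA-S94A replicate gave 1 that fell, since Gja5 lost its call in both cases (limma adjusted p = 0.0937 and 0.0819). With no filter on low values 0 fell, as Gja5 and Panx2 both lost their calls (limma adjusted p = 0.0541 and 0.0751). With a minimum mean of 5 TPM the 4 called genes were not tested, and 0 of the rest rose or fell.

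Of the other desmosomal and desmin genes, 4 of 11 listed were tested, of which 1 rose and 2 fell (median −0.21). With 4 tested these were 25% and 50%, beside 17.4% higher and 15.5% lower over all tested names. Pkp1, plakophilin-1, known from the desmosomes of skin, stood at 17.3 and 17.0 TPM in YAP5SA, against 6.35 and 5.33 TPM in YAP5SA-S94A (log2 fold change 1.41). Des, the filament gene to which desmoplakin connects, fell by 0.52 on the log2 scale (limma adjusted p = 0.015), a call lost with no intensity trend (limma adjusted p = 0.062) and with no filter (0.078), each of which left 1 lower gene in the list. Perp, a desmosomal membrane protein of epithelia, fell by 1.29. Dsg1, Dsg3, Dsg4 and Pkp3, which serve the desmosomes of stratified epithelia, were listed at 0 in all 4 libraries.

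Channels, scaffolds and linkers of the disc split, with 7 of 22 tested genes higher and 5 lower (median −0.0050). These were 31.8% and 22.7%, beside 17.4% higher and 15.5% lower over all tested names. Lrrc10, a cardiac leucine-rich repeat protein, fell to 63.0 and 55.9 TPM in YAP5SA, against 221 and 212 TPM in YAP5SA-S94A (log2 fold change −1.85). Among those that rose were Sptan1, a spectrin of the membrane skeleton (log2 fold change 1.05), Sorbs2, an adaptor of the disc (0.83), and Tmem43, a membrane protein gene mutated in an inherited human arrhythmogenic cardiomyopathy (0.94). Leaving out YAP5SA-S94A replicate 1 gave 3 lower genes in this list, and leaving out YAP5SA-S94A replicate 2 gave 2.

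**Figure D4:**
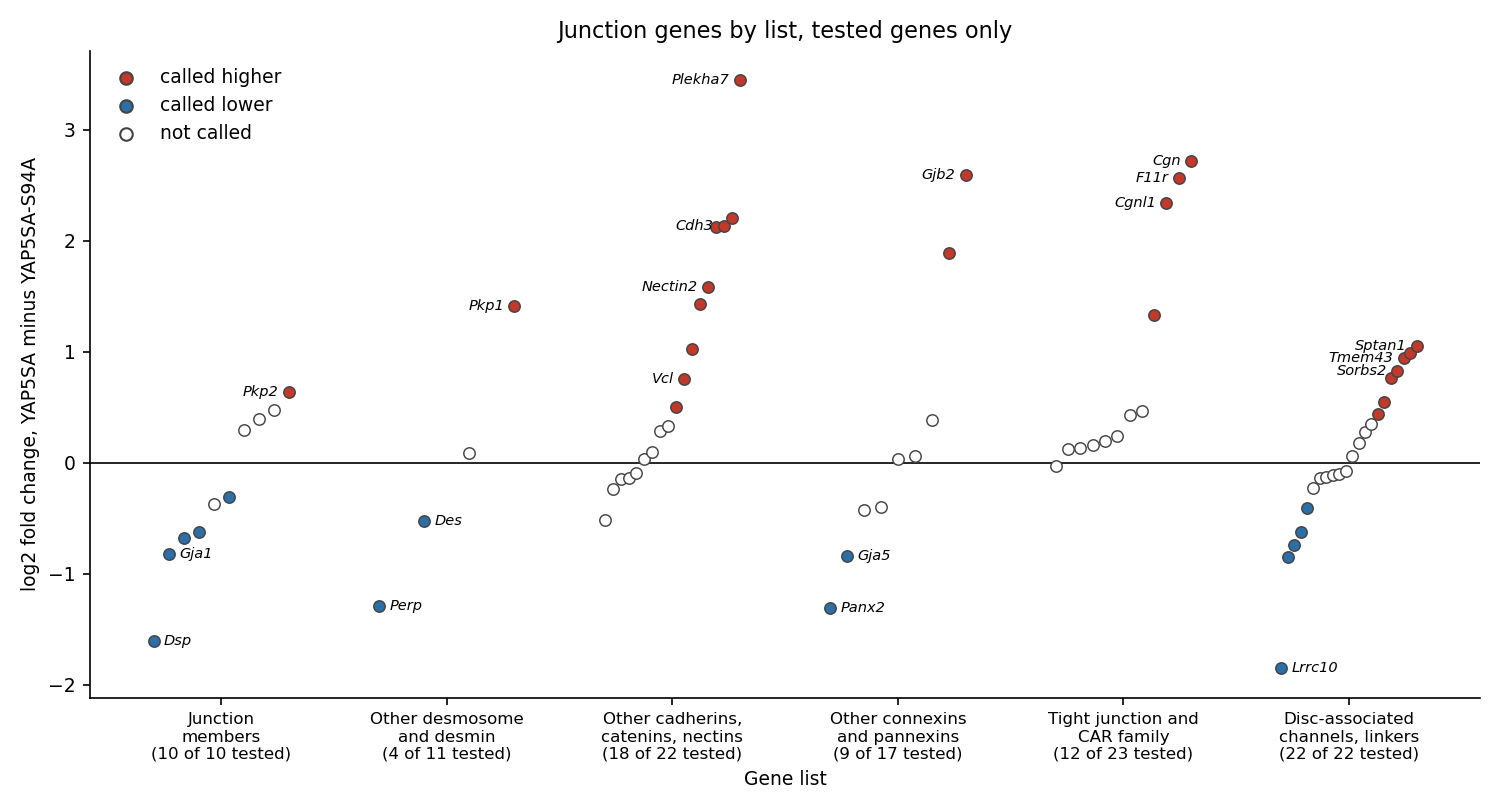
Log2 fold change (vertical axis, YAP5SA minus YAP5SA-S94A) of every tested gene in the 10 junction genes and 5 other junction lists, each point a gene, sorted within its list and coloured by its call. The called tight junction and cadherin, catenin and nectin genes all lie above 0, up to Plekha7 at 3.45, whereas 5 of the 6 called junction members lie below it.

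Some markers of cell types also differed between the forms. Of 10 cardiomyocyte markers 8 (80%) fell and 1 (10%) rose (median −0.94), beside 15.5% lower and 17.4% higher over all tested names. Tnni3, cardiac troponin I, stood at 912 and 801 TPM in YAP5SA against 2614 and 2401 TPM in YAP5SA-S94A. Actn2, sarcomeric alpha-actinin, at 851 and 737 TPM in YAP5SA against 651 and 652 TPM in YAP5SA-S94A, was not called. Of the epicardial, mesothelial and epithelial markers 5 of 9 tested (55.6%) rose and 0 fell. The 10 listed summed to 257 and 229 TPM in YAP5SA, against 66.8 and 60.1 TPM in YAP5SA-S94A. Krt18, a keratin of simple epithelia, made up most of that sum in YAP5SA, at 140 and 127 TPM, against 6.44 and 3.60 TPM in YAP5SA-S94A. Upk3b, a uroplakin gene of mesothelium, stood at 22.4 and 18.2 TPM in YAP5SA against 0.611 and 0.544 TPM in YAP5SA-S94A, and Krt19, another keratin of simple epithelia, at 41.5 and 33.0 TPM in YAP5SA against 7.54 and 7.15 TPM in YAP5SA-S94A. Msln, mesothelin, and Aldh1a2, a retinoic acid synthesis enzyme, rose by 0.70 and 0.91 on the log2 scale. The other 4 tested markers, Wt1, Upk1b, Krt8 and Tbx18, were not called. Wt1, an epicardial transcription factor, stood at 2.63 and 2.27 TPM in YAP5SA against 3.10 and 2.83 TPM in YAP5SA-S94A, and Epcam, an epithelial adhesion molecule, stayed under 1 TPM in each library. The part of cardiomyocyte, mesothelial or epithelial cell content in the junction results was not tested.

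Summed markers of the other cell types overlapped between forms or differed in either direction. The 10 fibroblast markers summed to 8583 and 6812 TPM in YAP5SA and 7287 and 6934 TPM in YAP5SA-S94A (1 rose and 2 fell), and the 8 smooth muscle and pericyte markers to 334 and 296 TPM in YAP5SA and 319 and 345 TPM in YAP5SA-S94A (1 rose and 1 fell). The 9 endothelial markers summed to 27.9 and 29.4 TPM in YAP5SA and 38.7 and 39.3 TPM in YAP5SA-S94A, with 1 of 6 tested higher and 1 lower. The lower sum came from Kdr, at 3.97 and 3.33 TPM in YAP5SA against 21.3 and 19.9 TPM in YAP5SA-S94A. Tek rose, at 10.2 and 13.0 TPM in YAP5SA against 3.57 and 3.79 TPM in YAP5SA-S94A, and 4 were not called. Of the 10 blood and immune markers, which summed to 538 and 519 TPM in YAP5SA and 814 and 813 TPM in YAP5SA-S94A, 1 of 5 tested rose and 2 fell, and Cd3e, Hbb and Hba-a1 were listed at 0 throughout. Lyz2 made up most of that sum, at 438 and 428 TPM in YAP5SA against 714 and 710 TPM in YAP5SA-S94A. Csf1r was the 1 that rose, at 38.2 and 37.5 TPM in YAP5SA against 14.6 and 12.9 TPM in YAP5SA-S94A. The 6 Schwann and neuronal markers summed to 28.7 and 20.6 TPM in YAP5SA and 15.3 and 15.7 TPM in YAP5SA-S94A, where 1 of 3 tested rose. This was Tubb3, most of that sum, at 24.3 and 18.2 TPM in YAP5SA against 9.25 and 9.50 TPM in YAP5SA-S94A, and 2 were not called. Called shares were 10% higher and 20% lower for fibroblast markers and 12.5% each way for smooth muscle and pericyte markers. They were 16.7% each way for endothelial markers and 20% higher and 40% lower for blood and immune markers. For Schwann and neuronal markers they were 33.3% higher and 0% lower. Over all tested names 17.4% were called higher and 15.5% lower. The part of these cells in the junction results was not tested.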

How the data were processed

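The 4 RNA-seq tables, 1 per library, were used as deposited. Per the submitters' processing notes, fastp, HISAT2 2.2.1, StringTie 2.2.1 and build rn7 were used, and per the labels libraries were directional and from poly(A) RNA. The use of strand in counting is not given in the sources used here. TPM was computed by the authors and has the same sum in each library. The deposited FPKM differs from it by 1 factor per library. The deposited Coverage signal is reads per base, not scaled for depth, and its most frequent ratio to FPKM gave the aligned gigabases. No table of read counts was used.

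TPM was summed over entries sharing a name, and names with a mean of at least 1 TPM were compared by limma 3.58.1 (R 4.3.3) after the transform log2(TPM + 1), with an intensity trend and with 2 residual and 5.09 prior degrees of freedom, with Benjamini-Hochberg adjustment over all 13420 names. Ratios used an exact permutation test in scipy 1.17.1. The alternatives were other pseudocounts, filters, units, scalings and variance models, the replicate block, the highest entry per name and each library left out.

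The members and lists were chosen with earlier results of these data known. Named genes were the 10 members, up to 4 called genes with the smallest p in each other list, the 3 nearest profiles of 3 members, and Yap1 and Ccn1 as a check of the labels. The single marker genes, the desmosomal genes listed at 0, the opposite-strand genes and those so described in the text were named after their values were seen. Some genes that this rule names are not reported here. The marker lists were cardiomyocyte, fibroblast, endothelial, smooth muscle and pericyte, epicardial with mesothelial and epithelial, blood and immune, and Schwann and neuronal.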

Additional observations from a re-analysis of the deposited data

How the results depend on the processing

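The calls of Dsp, Ctnna1, Gja1 and Pkp2 held in the 15 other settings, and none of the 10 genes changed direction in them. The number of the 10 called higher was 2 with median-of-ratios scaling, where 2440 of all tested names were called higher, against 2337 in the fit used above. With the replicate numbers of the titles as a replicate block it was also 2, with 6 lower. The block also raised the calls over all tested names, to 2726 higher and 2593 lower, against 2337 and 2083 in the fit used above. No label ties equal numbers to a shared culture, and over all tested names the deviations of equal numbers correlated at 0.101. Jup and Dsg2 were called with the replicate block (adjusted p = 0.0177 and 0.0423 by limma). The median log2 fold change of the 10 was −0.39 with quantile normalization and −0.41 with the mitochondrial chromosome left out, where Jup was called lower (adjusted p = 0.0482 by limma). Without that chromosome 2660 of 13600 tested names were called lower. Over the 4 fits that each left out 1 library, the 10 genes gave 1 to 2 higher calls, 3 to 6 lower calls and medians of −0.48 to −0.20. All names gave 1312 to 2739 lower calls, and the other junction lists 5 to 11. With 1 sample left in a group, it is assumed to vary like the other group. The log2 difference in the ratio of Ctnna3 to Ctnna1 ran from −0.039 to 0.11, changing sign without YAP5SA replicate 1. That of Dsg2 to Dsc2 ran from −0.36 to 0.11, changing sign without YAP5SA replicate 2 (0.11) and without YAP5SA-S94A replicate 1 (0.0074). That of Pkp2 to Dsp was 2.24 with a pseudocount of 1, against 2.27 with none. The cause of these shifts was not tested. With 2 libraries per form, differences such as those of Dsc2 (SE 0.20 on the log2 scale) and Tjp1 (SE 0.12) were at the limit of what these data resolve.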
